A study of Rattus norvegicus with 6 samples.

Results

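Glycolysis was examined through 10 genes, Hk1, Gpi, Pfkm, Pfkp, Aldoa, Aldoc, Pgk1, Eno1, Eno2 and Pkm, which encode enzymes of that pathway and were chosen by name out of the 22601 genes in the table. Each of the 10 symbols matched 1 row. The tissue was ventral hippocampus, the animals were males of the outbred Sprague Dawley strain, and the labels name no treatment and no engineered allele. Adult rats were 4 months old and aged rats 22 months old, each age had 10 rats that had been through the Morris water maze, a test of spatial memory, and 3 per age were drawn at random for RNA sequencing. Each library is therefore 1 animal, and the comparison asks how transcript levels differ between the ages.

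Glycolysis splits glucose into pyruvate in the cytosol, with a net yield of ATP and NADH. Brain tissue depends on glucose as its main fuel, and astrocytes and neurons share the work unequally, since astrocytes are known for a high glycolytic rate and for passing lactate to neurons. Several steps are served by isozymes encoded by separate genes, and in brain the aldolase Aldoc marks astrocytes while the enolase Eno2, or neuron-specific enolase, marks neurons.

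Library totals lay between 12476758 and 15689921 counts, and the 10 enzymes together took 0.870%, 0.882% and 0.822% of the counts in adult replicates 1 to 3 and 0.965%, 0.960% and 0.861% in aged replicates 1 to 3. Neuron markers (10 genes) summed to between 10749 and 12625 CPM (counts scaled to a common library size, here without TMM, edgeR's correction for differences in library make-up) and astrocyte markers (9 genes) to between 4380 and 5867 CPM, with all markers detected, and the groups overlapped for each of these 19 genes. Oligodendrocyte markers (8 genes, none at 0) summed to 11302 to 17511 CPM in the adults and 6705 to 9496 CPM in aged libraries. Of the 8, 5 were lower in every aged than in every adult library. With TMM scaling it was 6 of the 8, against 4.43% of all genes tested. In bulk tissue, fewer cells of a type and less RNA per cell cannot be told apart, and the part of this difference in the values below was not tested. Of 6 markers of hippocampal fields picked after the data had been seen, all were detected. In CPM with TMM scaling the dentate gene Prox1 lay between 28.4 and 100.1 CPM and the CA1 gene Wfs1 between 34.97 CPM, in adult replicate 1, and 232.9 CPM. All 6 had a log2 fold change, aged minus adult, below 0 (median -0.42), with a smallest unadjusted edgeR p of 0.208. The part of the make-up of fields in the values below was not tested.

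As counted, the enzymes of glycolysis stood among the most abundant transcripts of the tissue at every step except that of triosephosphate isomerase. Levels between genes are compared as FPKM, counts scaled to gene length and library total, as the authors deposited them. Summed over isozymes and averaged over the 6 libraries, aldolase (Aldoa plus Aldoc) stood highest (1944.5 FPKM), followed by glyceraldehyde-3-phosphate dehydrogenase (GAPDH, 1395). Enolase (503), phosphofructokinase (455), pyruvate kinase (449.8), phosphoglycerate mutase (431), glucose-6-phosphate isomerase (403) and phosphoglycerate kinase (381) stood close together. Each overlapped the next in this order over the libraries, so that neighbours are not resolved beyond the spread between rats, while enolase (443 to 548) lay wholly above phosphoglycerate kinase (351 to 419). Hexokinase, which commits glucose to the cell, was lower at 167 FPKM (144 to 184). Triosephosphate isomerase, encoded by Tpi1, was at 14.6 FPKM (12.8 to 17.2). The Tpi1 count is uncertain, for a reason given below with Eno2, so its true level in the tissue is not settled by this value.

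**Figure D1:**
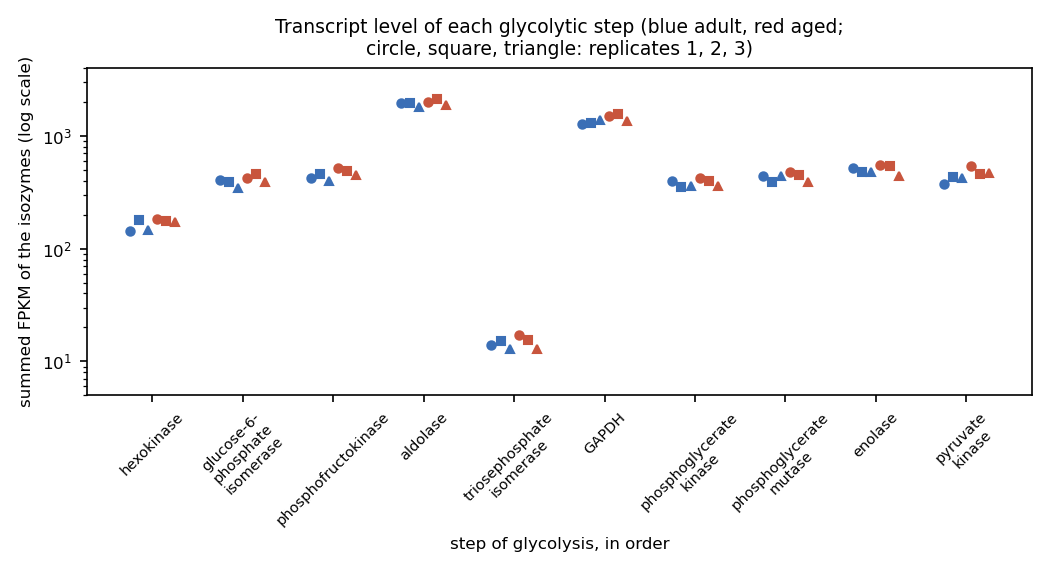
Summed FPKM of the isozymes at each step of glycolysis, in pathway order on a log axis, with 1 point per library (blue adult, red aged). Aldolase lies highest (1944.5 on average) and triosephosphate isomerase lowest (14.6, from a count that is uncertain). Adult and aged points overlap at each step but that of pyruvate kinase (434.7 highest adult, 455 lowest aged).

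By gene, Aldoa ranked 22 and Aldoc 49 among all 22601 genes by mean FPKM, Eno1 130, Pkm 147, Gpi 175, Pgk1 194, Pfkm 347, Hk1 476 and Pfkp 571. Eno2 ranked 5131, at 13.8 FPKM on average against 479 for Eno1, and its count is uncertain for the reason given below. At single-enzyme steps the listed member gave nearly all of the signal, with Hk1 at 98.7 to 99.1% of the summed FPKM of Hk1, Hk2 and Hk3 and Pkm at 99.97% or more of pyruvate kinase FPKM (Pkm and Pklr).

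None of the 10 enzymes was called different between the ages. Tested over 14588 genes with edgeR's quasi-likelihood test and Benjamini-Hochberg adjustment, 0 of the 10 were called at an adjusted p under 0.05, 0 higher and 0 lower in aged rats, against 0% of all genes tested. At an unadjusted p under 0.05 there were 0 of the 10, against 3.45% (503) of all genes, and DESeq2 called 0 of the 10, against 0.213% (31) of the genes it adjusted. The edgeR adjusted p was 1 for each of the 10, and the smallest unadjusted p was 0.151, for Pkm. The log2 fold change, aged minus adult, lay above 0 for 9 of the 10, against 49.5% of all genes tested. The median of the 10 was 0.10, and that over all genes was -0.0022. These genes moved together across libraries, as described below, so the 9 are not separate observations of age.

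The data bound how large an age difference could be. Leaving out Eno2, the 95% intervals of the aged over adult ratio ran at their widest from 0.804 (Aldoc) to 1.46 (Pkm), each interval taken alone. For Eno2 the interval ran from 0.267 to 1.70.

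**Figure D2:**
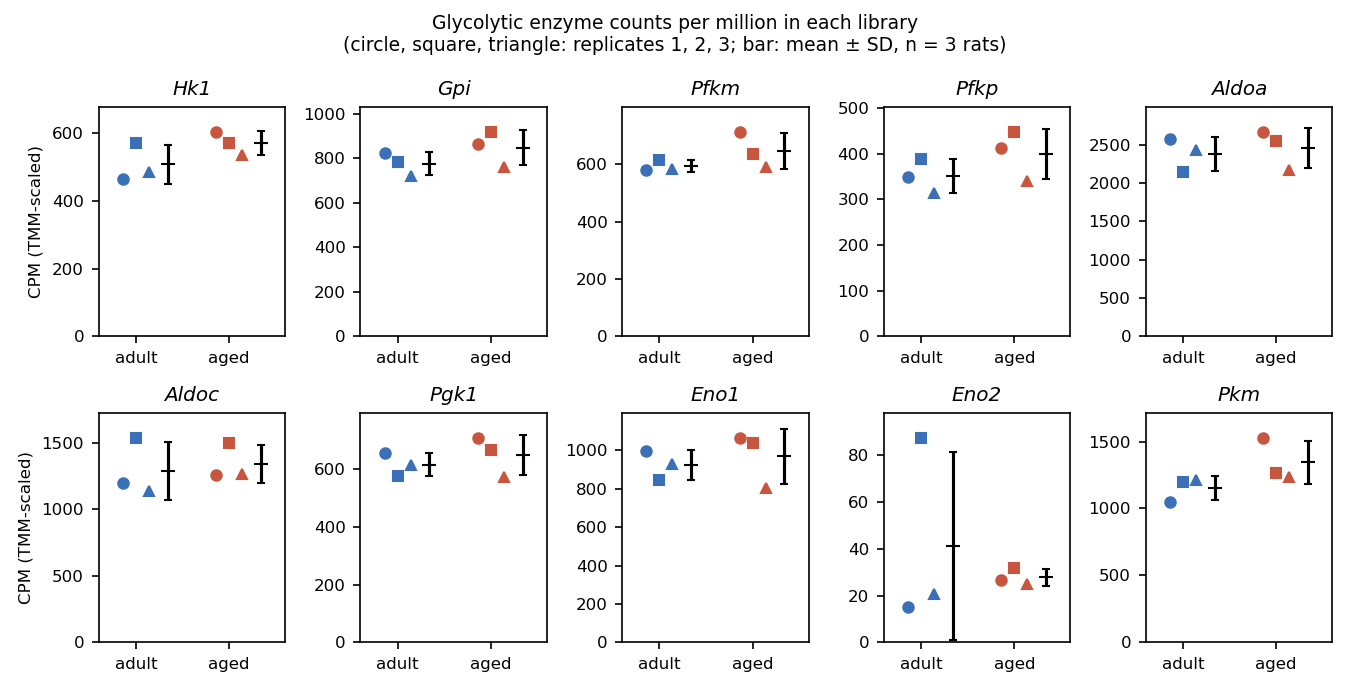
CPM of each of the 10 enzymes in each library, scaled by TMM, with the mean ± SD of 3 rats as black bars and all axes starting at 0. Adult and aged points overlap in every panel but that of Pkm, where 1214 (highest adult) and 1238 (lowest aged) lie next to each other, and Eno2 has a single high adult point (87.4).

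The first steps load and commit glucose. Hk1 encodes hexokinase 1, the main brain hexokinase, which phosphorylates glucose at the outer mitochondrial membrane. It stood at 465, 573 and 487 CPM (scaled by TMM, as are CPM values from here on unless given as of total counts) in adult replicates 1 to 3 and 605, 571 and 535 CPM in aged replicates 1 to 3. Adult replicate 2 lay inside the aged range and the other adult rats below it, and the log2 fold change was 0.17 ± 0.13 (SE).

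Gpi encodes the isomerase that turns glucose-6-phosphate into fructose-6-phosphate. It stood at 824, 785 and 721 CPM in the adults and 863, 920.4 and 763 CPM in the aged animals. Aged replicates 1 and 2 lay above every adult rat and aged replicate 3 between adult values (log2 fold change 0.13 ± 0.13).

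Phosphofructokinase is the main control point of the pathway and is built from muscle (Pfkm), platelet (Pfkp) and liver (Pfkl) type subunits. Pfkm stood at 581, 616 and 584 CPM in the adults and 713, 636 and 590.1 CPM in the aged animals. Pfkp stood at 348, 388 and 315 CPM in the adults and 411, 448 and 339.8 CPM in the aged animals. Aged replicates 1 and 2 lay above every adult rat for both genes, and aged replicate 3 lay among the adults. Pfkp made 37.9%, 39.1% and 35.4% of the Pfkp plus Pfkm FPKM in adult and 37.0%, 41.7% and 36.9% in aged rats, and these shares overlapped.

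Aldolase splits fructose-1,6-bisphosphate, and its forms A and C are the brain forms. Aldoa stood at 2570.2, 2141 and 2427 CPM in the adults and 2671, 2547 and 2169.7 CPM in the aged animals, and Aldoc at 1194, 1538 and 1135 CPM in the adults and 1254, 1501 and 1262 CPM in the aged animals. Both overlapped between the ages, with log2 fold changes of 0.05 ± 0.14 and 0.05 ± 0.16. Aldoc was high in replicate 2 of both ages, where Aldoa was lowest among adults and intermediate among aged rats. Aldoc made 38.9%, 49.7% and 39.1% of the Aldoc plus Aldoa FPKM in adult and 39.2%, 44.7% and 44.4% in aged rats, a mean of 42.6 ± 6.14% and 42.8 ± 3.11% (SD, n = 3). The sum of the astrocyte markers other than Aldoc was highest in the same 2 libraries, at 5867 and 5655 CPM of total counts in adult and aged replicate 2 and 4380 to 4897 CPM in the other 4. The markers did not share this order one by one (CPM with TMM): S100b, the most abundant (2710 and 2768), and Acsbg1 (299 and 267) were highest in these 2, but aged replicate 2 was the lowest of all libraries for Gja1 (334) and Slc1a2 (41.0), while Aqp4 was highest in adult replicate 1 (562) and Fgfr3 in aged replicate 3 (132). The part of these markers in the Aldoc values was not tested.

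Payoff steps return ATP. Pgk1 encodes phosphoglycerate kinase 1, which makes the first ATP of this phase. It stood at 655, 577 and 616 CPM in the adults and 709, 666 and 572 CPM in the aged animals. Aged replicate 3 lay below every adult rat and the other aged rats above all of them (log2 fold change 0.08 ± 0.13).

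Eno1 encodes alpha-enolase, the form found in most cells. It stood at 996, 844 and 930.0 CPM in the adults and 1066, 1037 and 804 CPM in the aged animals, again with aged replicate 3 lowest of all and the other aged rats highest (log2 fold change 0.07 ± 0.15). The same split of the aged rats thus held for Pgk1 and Eno1.

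Pkm encodes the muscle and brain pyruvate kinase, which makes pyruvate and the last ATP. It stood at 1047, 1195 and 1214 CPM in the adults and 1529, 1264 and 1238 CPM in the aged animals, a mean of 1152 ± 91.3 and 1344 ± 161 CPM (SD, n = 3). Pkm was the only member with every aged above every adult rat, 1 of 10 against 3.13% of all genes tested, while 0 of 10 lay wholly below (4.43% of all genes). Its log2 fold change was 0.22 ± 0.14 (edgeR adjusted p = 1). The table gives 1 value per gene, so the M1 and M2 splice forms of Pkm are not separated.

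Which libraries were high was shared by most of the enzymes. Aged replicate 1 was the highest library for 6 of the 10 and aged replicate 2 for 2, with aged replicate 2 above the gene's own mean for 10 of 10 and aged replicate 1 for 8. Aged replicate 3 was below the gene's own mean for 10 of 10 and adult replicate 3 for 9. For Hk1 (-0.004) and Pkm (-0.002) the deviation of aged replicate 3 was very small and depended on the scaling. In FPKM, which has no TMM scaling, aged replicate 3 stood above the mean of the 6 libraries for Hk1 (170.4 against 165.3) and Pkm (463.6 against 449.8). Averaged over the 9 enzymes other than Eno2, the deviation from the gene's mean log2 CPM was -0.06, -0.02 and -0.10 in adult replicates 1 to 3 and 0.15, 0.12 and -0.10 in aged replicates 1 to 3. An aged rat thus stood with the lowest adult rat. Without aged replicate 3 the median log2 fold change of the 10 was 0.19, and 6 of the 10 (Gpi, Pfkm, Pfkp, Pgk1, Eno1 and Pkm) had every aged above every adult value, against 7.7% of all genes. Without adult replicate 2 there were 5 (Hk1, Pfkm, Aldoc, Eno2 and Pkm), against 10.1%, and a median of 0.18. Leaving out each of the other 4 libraries left 1 of the 10, Pkm, against 6.34 to 9.36%. These genes moved together and aged replicate 3 was low for them, so the 6 and the 5 are not separate observations of age. No omission gave a call among the 10. Without aged replicate 2 the median was 0.0682.

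**Figure D3:**
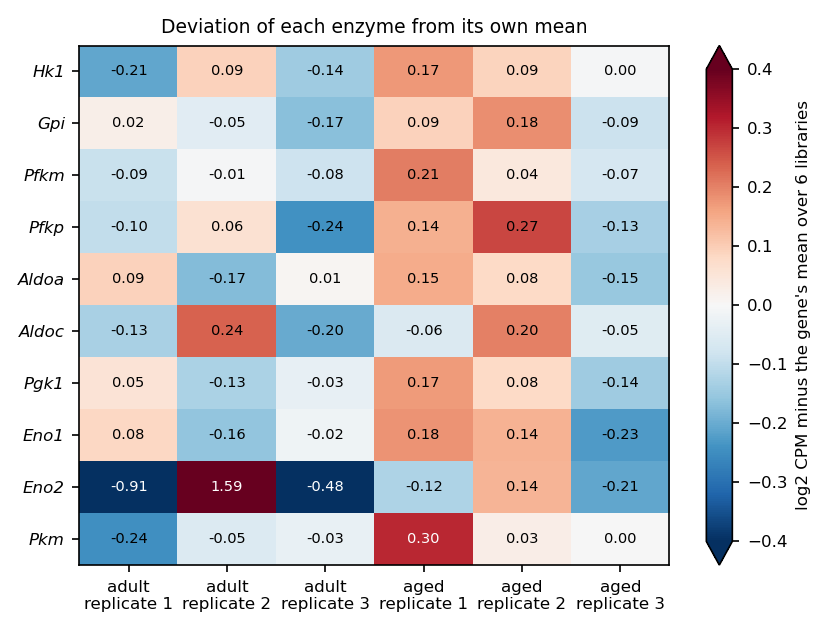
Each enzyme's log2 CPM minus its own mean over the 6 libraries, with the colour scale ending at 0.4 in either direction. Aged replicates 1 and 2 are above the mean for 8 and 10 of the 10 enzymes. Aged replicate 3 is below it for all 10, though barely for Hk1 (-0.004) and Pkm (-0.002). Eno2 runs from -0.91 to 1.59.

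Within each age, the enzymes other than Eno2 varied less than, or about as much as, other abundant genes. Their pooled within-age SD of log2 CPM ran from 0.10 (Pfkm) to 0.20 (Aldoc), beside a median of 0.18 over the 2381 tested genes averaging 100 CPM or more. Of those genes, 13.9% had a smaller SD than Pfkm, 51.2% than Pfkp or Eno1 and 58.3% than Aldoc, with the remaining enzymes between Pfkm and Pfkp. The SD of Eno2 was 0.96.

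Genes of like pattern were ranked by the root mean square distance between their centred log2 CPM and the mean centred profile of the 10 enzymes over the 6 libraries. Out of 9593 genes averaging 10 CPM or more, those near it included Flywch1 (distance 0.022), Yif1a (0.028), Rusc1 (0.031) and Bend6 (0.036). With Eno2 left out of the profile, an alternative added after seeing the data, the nearest were Msantd4 (0.022), Hspd1 (0.023), Ptges2 (0.024), Clns1a (0.027) and Cog4 (0.031), and none of those 4 was among them. These genes are the nearest by rank only, and how many others lie near so flat a profile was not counted.

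Eno2 stood apart from the other members in level and in spread. It stood at 15.3, 87.4 and 20.6 CPM in the adults and 26.5, 31.7 and 25.0 CPM in the aged animals, so that adult replicate 2 was highest and the other adults lowest, with the aged rats between them. These values rest on 224, 1382 and 309 counts in adult and 398, 395 and 399 counts in aged libraries. The log2 fold change was -0.57 ± 0.58 (edgeR adjusted p = 1), and 0.63 without adult replicate 2. On log2(FPKM + 1) with limma it was -0.13, with limma-voom -0.15 and with the replicate number as a block -0.13. Eno2 made 7.52% of the Eno2 plus Eno1 FPKM in adult replicate 2 and 1.19 to 2.38% in the other 5 libraries. The 10 neuron markers other than Eno2 showed no such rise, summing to 10859 CPM of total counts in adult replicate 2 and 10749 to 12625 CPM in the others.

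Genes beside Eno2 had low values as well. In the gene order of the GRCr8 assembly, used only for names and neighbours, Tpi1 is the third gene after Eno2 among protein-coding genes of the table. From Grcc10, on one side, to Gnb3, on the other, a run picked after its values were seen, 9 consecutive genes had mean values of 0.00483 to 14.6 FPKM. Among them were Atn1, the atrophin gene expressed in most neurons, at 0.583 FPKM, Spsb2 with 1 count in all libraries together, and the deubiquitinase gene Usp5 at 9.68 FPKM. Outside the run, the 8 genes shown stood between 3.82 FPKM (C1s) and 72.4 FPKM (Phb2), with P3h3 at 28.8 and Gpr162 at 55.0 FPKM, and the glycolytic gene Gapdh, on the same chromosome, at 1394 FPKM. LOC100911238, a locus with no name in the annotation table, was the gene nearest to Eno2 in pattern among 10099 genes and was picked for that after its values were seen. It stood at 18.6, 81.4 and 21.3 CPM in the adults and 26.8, 23.3 and 22.4 CPM in the aged animals, a root mean square distance of 0.22. The next were Zfp365 (0.35), at 41.5, 132.6 and 50.7 CPM in the adults and 82.7, 64.6 and 71.0 CPM in the aged animals, and the kinesin gene Kif5a (0.35), both also picked for their values. Kif5a stood at 147, 558 and 165 CPM in the adults and 328, 204 and 256 CPM in the aged animals. Whether reads of Eno2 and Tpi1 were given to other loci, or dropped, when reads were mapped was not tested, so the counts of both genes are uncertain.

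**Figure D4:**
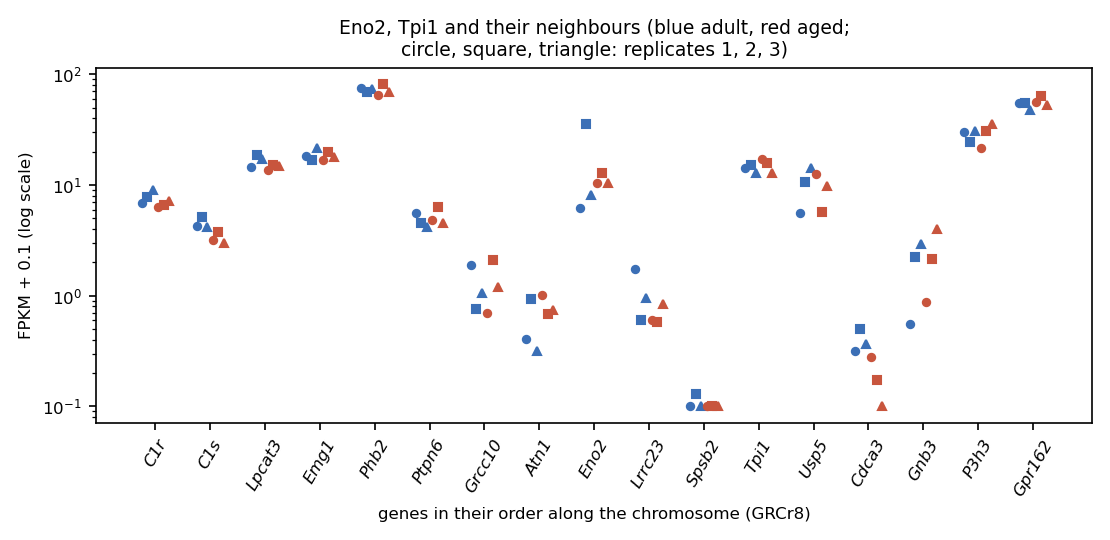
FPKM plus 0.1, on a log axis, of Eno2 and the 8 protein-coding genes of the table on either side in GRCr8 order, with 1 point per library (blue adult, red aged). The 9 genes from Grcc10 to Gnb3, Eno2 and Tpi1 among them, have means of 14.6 FPKM or less, and Eno2 in adult replicate 2 (35.1) is the highest point within that run.

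Upstream sequences are shown for the enolase pair, whose levels as counted differ most, and for Aldoc, the most variable of the other 9 enzymes. Since the Eno2 count is uncertain, the gap between the enolases is uncertain too. Capitals mark ACGTG or GCGTG, searched on both strands and so printed as CACGT or CACGC where they lie on the other strand. They are the core letters of the element bound by hypoxia-inducible factor, a known activator of glycolytic genes. Each sequence is the 250 bases before the start of transcription from RefSeq (GRCr8), printed 5′ to 3′ on the gene's strand. Eno1 is at chr5:166002617-166002866 (+), Eno2 at chr4:159267221-159267470 (-) and Aldoc at chr10:63715294-63715543 (+).
Eno1: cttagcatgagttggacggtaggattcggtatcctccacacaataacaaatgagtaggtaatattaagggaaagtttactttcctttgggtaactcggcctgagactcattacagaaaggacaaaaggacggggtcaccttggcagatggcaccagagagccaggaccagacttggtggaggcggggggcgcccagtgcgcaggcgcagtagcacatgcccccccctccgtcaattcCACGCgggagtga
Eno2: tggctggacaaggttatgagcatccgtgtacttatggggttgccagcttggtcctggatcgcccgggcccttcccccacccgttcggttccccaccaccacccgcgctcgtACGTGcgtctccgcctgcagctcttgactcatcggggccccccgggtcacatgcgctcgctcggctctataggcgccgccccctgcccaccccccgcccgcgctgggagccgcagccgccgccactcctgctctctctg
Aldoc: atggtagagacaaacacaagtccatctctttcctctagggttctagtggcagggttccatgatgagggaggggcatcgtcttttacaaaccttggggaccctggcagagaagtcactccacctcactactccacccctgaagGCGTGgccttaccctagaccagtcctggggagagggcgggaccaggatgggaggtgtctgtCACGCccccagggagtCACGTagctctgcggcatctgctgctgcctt
The Eno1 window shown holds 1 match, starting 13 bases before the start, Eno2 holds 1, at 139 bases, and Aldoc holds 3, the nearest at 31 bases. Eno1 has a second listed start, whose window (chr5:166003111-166003360, not shown) also holds 1 match, at 118 bases. Of the 10 enzymes 9 had an entry, with 13 windows in all since some genes have several starts, and 8 of 13 (61.5%) held a match against 36.7% of all 33469 upstream windows. By motif, ACGTG was in 5 of 13 (38.5%, against 16.6%) and GCGTG in 4 of 13 (30.8%, against 25.9%), and CACGTG, which contains ACGTG, was in 0 of 13 (against 5.59%). A match is a description of letters only, and windows of these genes differ in base composition from 47.6 to 70.0% G and C.

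The remaining enzymes and isozymes of glycolysis were not called either. Of 14 looked up, 13 were in the table and 9 were tested, 5 with higher and 4 with lower values. Of these 9, 0 were called (edgeR), against 0% of all genes tested, and their median log2 fold change was 0.05. That median was below 0 without adult replicate 2 (-0.014) and without aged replicate 1 (-0.019), 2 (-0.062) or 3 (-0.023). The fits without an aged replicate tested 10 of these genes in place of 9, so the missing library and the changed gene set are not separated there. The direction of the median was thus not stable. Pfkl, the liver type subunit, stood at 238, 242 and 232 CPM in the adults and 327, 261 and 271 CPM in the aged animals. All aged values lay above all adult values, as for 3.13% of all genes tested. The log2 fold change of Pfkl was 0.27 ± 0.13 (edgeR unadjusted p = 0.0666, adjusted p = 1). Pfkl made 18.9 ± 0.573% of phosphofructokinase FPKM in adult and 20.2 ± 1.73% in aged rats (SD, n = 3), and these shares overlapped. Gapdh stood at 2071, 2078 and 2282 CPM in the adults and 2498, 2535 and 2119 CPM in the aged animals, and Pgam1, the mutase, averaged 761 ± 59.9 and 787 ± 107 CPM. Aged replicate 3 was lowest of the aged rats for both, as for Pgk1 and Eno1. Adpgk, which phosphorylates glucose with ADP, averaged 52.9 ± 13.97 and 45.5 ± 3.13 CPM.

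**Figure D5:**
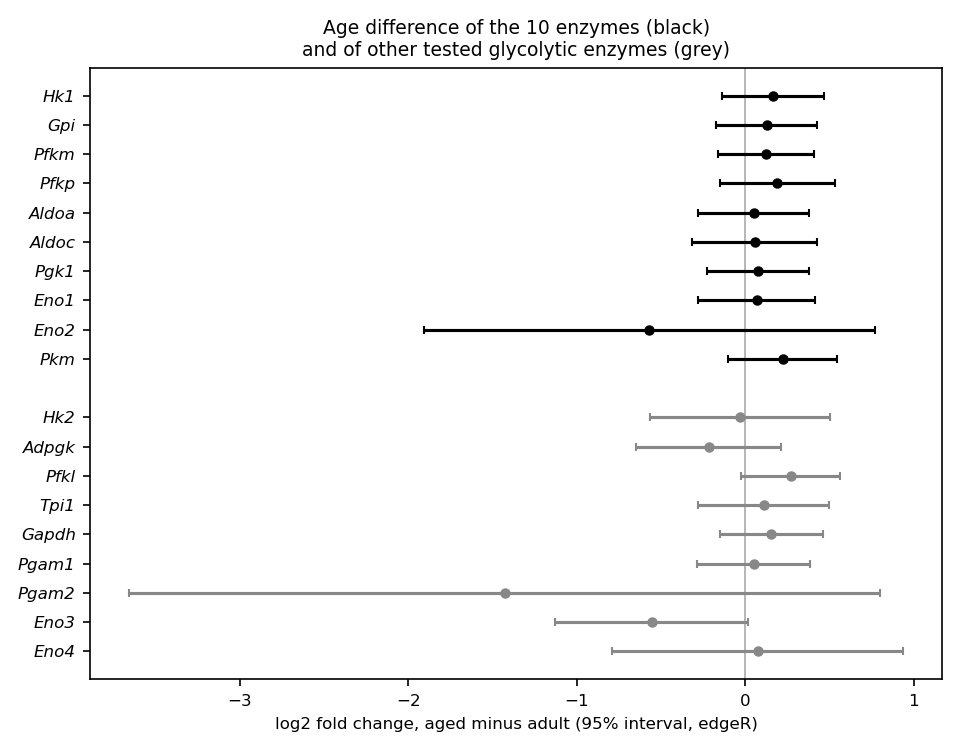
Log2 fold change, aged minus adult, with its 95% interval from edgeR, for the 10 enzymes (black) and the other tested enzymes of glycolysis (grey). Every interval includes 0, and those of Pgam2 and Eno2 are the widest.

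Isozymes of muscle were low. Eno3, the muscle enolase, stood at 15.1, 13.97 and 24.99 CPM in the adults and 11.6, 11.2 and 13.9 CPM in the aged animals. Every aged value was below every adult value, as for 4.43% of all genes tested. The log2 fold change of Eno3 was -0.56 ± 0.25 (edgeR unadjusted p = 0.0549, adjusted p = 1). Pgam2, the muscle mutase, stood at 6.20 CPM in adult replicate 3 and from 0 to 2.93 CPM elsewhere. Skeletal muscle markers (12 genes, none at 0 in all libraries) summed to 191, 184 and 599.7 CPM of total counts in adult and 188, 55.7 and 116 CPM in the aged animals, and were thus highest where Eno3 and Pgam2 were. The part of muscle transcripts in these isozymes was not tested. Among the 10 enzymes, muscle also uses Aldoa and Pfkm, which stood at 2427 and 584 CPM in adult replicate 3. The muscle markers summed to 599.7 CPM of total counts in that library, which does not measure how much Aldoa or Pfkm muscle brings. The part of muscle transcripts in both genes was not tested either.

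Genes around the pathway gave 0 calls (edgeR) in each of 4 lists, against 0% of all genes tested, so the lists do not differ from other genes in this. Regulators of glycolysis and of its oxygen response had 7 higher and 7 lower of 14 tested (median log2 fold change -0.04). Egln1, a prolyl hydroxylase that marks hypoxia-inducible factor for destruction, averaged 78.9 ± 5.30 CPM in the adults and 60.3 ± 8.18 CPM in the aged animals. All aged values were below all adult values, as for 4.43% of all genes tested (log2 fold change -0.39 ± 0.13, edgeR unadjusted p = 0.0178, adjusted p = 1). The kinase and phosphatase genes Pfkfb4 and Pfkfb1, which set the phosphofructokinase activator fructose-2,6-bisphosphate, averaged below 1 CPM at both ages. Vhl, which encodes the ubiquitin ligase subunit that binds the hydroxylated factor, averaged 53.5 ± 5.20 and 49.5 ± 2.25 CPM.

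Genes for the fate of pyruvate and lactate had 11 higher and 6 lower of 17 tested (median log2 fold change 0.04). Mpc1, a subunit of the mitochondrial pyruvate carrier, averaged 148 ± 20.7 CPM in the adults and 121 ± 18.0 CPM in the aged animals, and Dlat, a subunit of pyruvate dehydrogenase, 52.8 ± 3.91 and 60.6 ± 13.9 CPM. Dld, the dihydrolipoyl dehydrogenase of the same complex, averaged 146 ± 16.0 and 159 ± 17.9 CPM. Pdk4, a kinase that shuts that complex off, stood at 11.0 CPM in aged replicate 3 and from 1.69 to 3.86 CPM elsewhere.

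The pentose phosphate pathway, which branches off at glucose-6-phosphate to make NADPH and ribose, had 3 higher and 5 lower of 8 tested (median log2 fold change -0.03). Taldo1, the transaldolase, averaged 162 ± 25.3 and 136 ± 6.95 CPM, and Pgls, the lactonase, 33.7 ± 5.38 and 27.9 ± 7.75 CPM. Rpe, an epimerase, averaged 36.1 ± 3.32 and 31.3 ± 1.96 CPM with every aged below every adult rat, and Pgd, which makes NADPH, 59.2 ± 4.49 and 66.3 ± 3.90 CPM with every aged above. Of all genes tested, 4.43% lay wholly below and 3.13% wholly above in this way. Neither Rpe nor Pgd was called (edgeR unadjusted p = 0.149 and 0.189).

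Of 6 gluconeogenesis genes looked up, 3 could be tested, 2 higher and 1 lower (median log2 fold change 0.01). Pck1, which liver expresses strongly, stood at 0.751, 4.93 and 3.40 CPM in the adults and 0.932, 1.29 and 1.06 CPM in the aged animals (edgeR unadjusted p = 0.0451, adjusted p = 1). Liver markers without Ttr (11 genes, none at 0 in all libraries) summed to 32.6, 573 and 576 CPM of total counts in adult and 37.8, 287 and 230.0 CPM in the aged animals. Pck1 was high in the adult libraries in which they were high, and the part of liver transcripts in it was not tested. G6pc3 averaged 76.8 ± 8.90 and 82.3 ± 17.0 CPM and Pck2, the mitochondrial carboxykinase, 40.3 ± 7.24 and 40.6 ± 2.44 CPM.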

How the data were processed

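The authors deposited raw counts per gene symbol, whole numbers with 1 column per library, and FPKM values, and the submitters' processing notes name the build Rnor_6.0. For the aligner, counter, annotation and strand setting, the answer is not given in the sources used here. Each FPKM equalled the count over a length fixed per gene and over the library's total, to within a relative 2.73e-08 in the 12703 genes with at least 20 counts in every library, so both tables hold 1 measurement.

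Genes were filtered with filterByExpr (14588 of 22601 kept), scaled by TMM and tested with edgeR 4.0.16 (quasi-likelihood, R 4.3.3), aged against adult with age as the only term, two-sided, with Benjamini-Hochberg adjustment. Standard errors and intervals come from the quasi-likelihood F statistic. Log2 CPM used a prior count of 2. The test was checked on simulated counts, with changes larger than those fitted for any of the chosen enzymes, so the check does not cover differences as small as theirs. Alternatives were DESeq2 1.42.0, limma 3.58.1 (voom, and log2 FPKM with pseudocounts of 1 and 0.1), other scalings and filters, the replicate block and leaving out each library. Figures used matplotlib 3.10.9.

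The members and lists were chosen with earlier results of these data known. Genes named outside the 10 are, in each list, up to 4 with the smallest p, and Gapdh, Pgam1 and Tpi1 are named for their place in the pathway. The 5 genes of like pattern leave out locus identifiers and listed genes. A few genes that these rules or lists take, and sums that need them, are not reported here. In GRCr8, used for names and neighbours, all 10 enzymes matched. Pfkm overlaps Senp1 there, Aldoa overlaps LOC103691235, Hk1 and Eno2 overlap noncoding RNAs, and Pkm overlaps a pseudogene, so these counts are uncertain if strand was not used. Near-identical processed copies of genes such as Gapdh and Pgk1 exist in rodent genomes, and how shared reads were counted is not given.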

Additional observations from a re-analysis of the deposited data

How the results depend on the processing

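The call of 0 among the 10 enzymes held under all 11 other settings and without each library. Over all genes, the count of 0 became 31 with DESeq2, 0 of them among the 10, and 2 with log2(FPKM + 1) (LOC100361898 and Polr2i). It was 0 to 1 when each library was left out, with Mff, Tma7 and LOC103690005 called in turn without adult replicates 1, 2 and 3, all named for being the genes called. The median of the 10 was 0.0957 to 0.113 over the settings, 0.0682 to 0.186 without each library and 0.12 without Eno2. That of the other glycolytic enzymes was 0.0181 to 0.0632 over the settings, -0.0624 to 0.0602 without each library (below 0 without adult replicate 2 and without each aged replicate, with 9 to 10 genes tested) and 0.061 without Eno3, Pgam2 and Tpi1, a setting chosen after seeing the data. Among the 10, signs turned only when a library was left out: Aldoa ranged from -0.021 to 0.13, Aldoc from -0.027 to 0.20 and Eno2 from -0.95 to 0.63. The Pfkp share difference of 1.10 points ranged from -0.50 to 1.91 and that of Aldoc (0.209) from -1.60 to 3.76.

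With the replicate number as a block, 0 genes were called and the median of the 10 was 0.0957. Deviations of same-numbered libraries correlated at -0.015, -0.057 and 0.087, and not every library correlated best with its own number. With 3 libraries per age, these values cannot decide whether same-numbered rats shared a step of handling. With 3 rats per age, differences inside the intervals given are not excluded, and the intervals are not a limit of detection. Over all genes tested, log2 fold changes from -5.48 to 5.28 also went uncalled (smallest edgeR adjusted p = 0.51). The p-values weigh the age difference against the spread between rats, and only these 6 animals were sequenced. The counts behind Eno2 (224 to 1382) are fewer than those of the other enzymes.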
